A study of Mus musculus with 333 samples.

Results

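Microglia of the hippocampus were compared with microglia of the visual cortex in mice 12 days after birth (P12). The cells were taken by 2 labels, the cell type label Microglia and the region in the title, which gave 8 cells from hippocampus and 18 from visual cortex, 26 of the 333 single cells of the series. All cells came from wild-type mice without a stated treatment. They were enriched by fluorescence-activated sorting, captured 1 by 1 on a Fluidigm C1 chip, and the polyA RNA of each cell was sequenced as its own library. Which cells the gate selected is not stated in the labels. The design text gives n = 5 for each stage, but which mouse a cell came from is not labelled, so each region is 1 sample and no test, p-value or standard error can be given. Every difference below is a description of these 26 cells.

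Microglia are the resident macrophages of brain tissue. They depend on the growth factor receptor Csf1r, sense nucleotides and chemokines from neurons through P2ry12 and Cx3cr1, and in early postnatal life they multiply, clear dying cells and remove synapses. Border macrophages are related cells of the vessel walls and meninges, which share many genes with microglia and are told apart by genes such as Mrc1, Lyve1 and F13a1.

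The 8 hippocampal cells were 11.8% of the 68 P12 hippocampal cells (95% exact Clopper-Pearson interval 5.22 to 21.9), and the 18 cortical cells were 30% of 60 (18.8 to 43.2). Sorting and capture can set both shares. The intervals treat cells as independent draws and leave out differences between mice, sorts and chips, so they do not bound a regional share. Depth was alike, with 1144454 to 1737471 reads counted to genes per cell in hippocampus and 884543 to 1755940 in visual cortex, and with 1737 to 3503 and 1951 to 3544 genes detected. Both sexes were in both regions: by Xist and Y-linked reads, 2 hippocampal cells were female and 5 male, 6 cortical cells were female and 9 male, and 1 and 3 cells had neither signal at a level of 10 CPM (reads per 1000000 reads counted to genes). The cell IDs of the regions form separate runs whose meaning is not given, so region and any step tied to those runs cannot be told apart. Within the hippocampal set, the IDs of cells 1 to 16 lie apart from those of cells 17 to 68. Cells 1 to 16 are labelled myelinating oligodendrocyte, except cell 9, an astrocyte. All 8 microglia are among the later cells, so the share of 11.8% pools runs of unlike make-up.

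Microglia markers were present in every cell. Border macrophages share many microglial genes, so for the 6 cells described below these markers do not settle the label. Each of the 26 cells carried 11 or more of 15 microglia markers at 50 CPM or more, with a median of 14. Levels per region are the reads of a gene summed over its cells and divided by their summed total, again in CPM, and ratios are log2(hippocampus / visual cortex) after adding 1 CPM to each. None of the 15 markers differed by 2-fold or more between regions. Of all genes at 10 CPM or more in either region, 29.3% were at least 2-fold higher in hippocampus and 41.7% lower. The median log2 ratio of the 15 markers was -0.07. Without the 6 cells described below the median was -0.24, and 1 marker, the integrin Itgam, was lower by 2-fold or more (log2 ratio -1.07). P2ry12 had a lowest, median and highest value of 2840, 10074 and 23679 CPM over the hippocampal cells. In visual cortex the same values were 6.25, 11131 and 23973 CPM. The ranges overlapped almost fully except for a low tail in visual cortex, and the log2 ratio was 0.09.

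The genes of the resting, tissue-adapted state were likewise close. Of 20 homeostatic genes, all measured (10 CPM or more in either region), 1 was at least 2-fold higher in hippocampus and none lower. Over all measured genes 29.3% were higher and 41.7% lower. The median log2 ratio of the 20 genes was -0.06. The 1 higher gene was Selplg, the ligand of P-selectin. It ran from 0 to 4288 CPM over the hippocampal cells with a median of 1192, and from 0 to 3155 CPM with a median of 398 over the cortical cells. The groups overlapped, 6 of 8 hippocampal cells lay above the cortical median, and the log2 ratio was 1.12, with a range of 0.78 to 1.5 as single cells were left out. Without the 6 cells described below Selplg was within 2-fold (0.83), Olfml3, a secreted glycoprotein, was lower (-1.02), and the median of the list was -0.29. Tmem119, a membrane protein particular to microglia within the brain, had a read in 6 of 8 and 12 of 18 cells and stood at 696 against 450 CPM. Sall1, a transcription factor that maintains microglial identity, stood at 683 against 737 CPM and had reads in 4 of 8 and 12 of 18 cells.

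Border macrophage genes were also carried by 6 of the cells, 1 in hippocampus and 5 in visual cortex. These cells, hippocampus cell 35 and visual cortex cells 2, 23, 30, 54 and 55, had at least 3 of 12 such markers at 50 CPM or more, which is 12.5% (exact interval 0.316 to 52.7) against 27.8% (9.69 to 53.5) of the cells. These intervals, too, treat cells as independent draws and leave out differences between mice. The markers of the 6 cells numbered 5 in hippocampus cell 35 and 3, 7, 11, 9 and 11 in the cortical cells in the order given. The P2ry12 level was 6.25 CPM in visual cortex cell 54, 44.3 in cell 55, 77.3 in cell 30 and 1462 in cell 23, against 2840 in hippocampus cell 35. Visual cortex cell 2 had 11065 CPM, within the range of the other cells. These 6 cells therefore stand apart from their label in part, and results that move without them are given both ways.

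**Figure D1:**
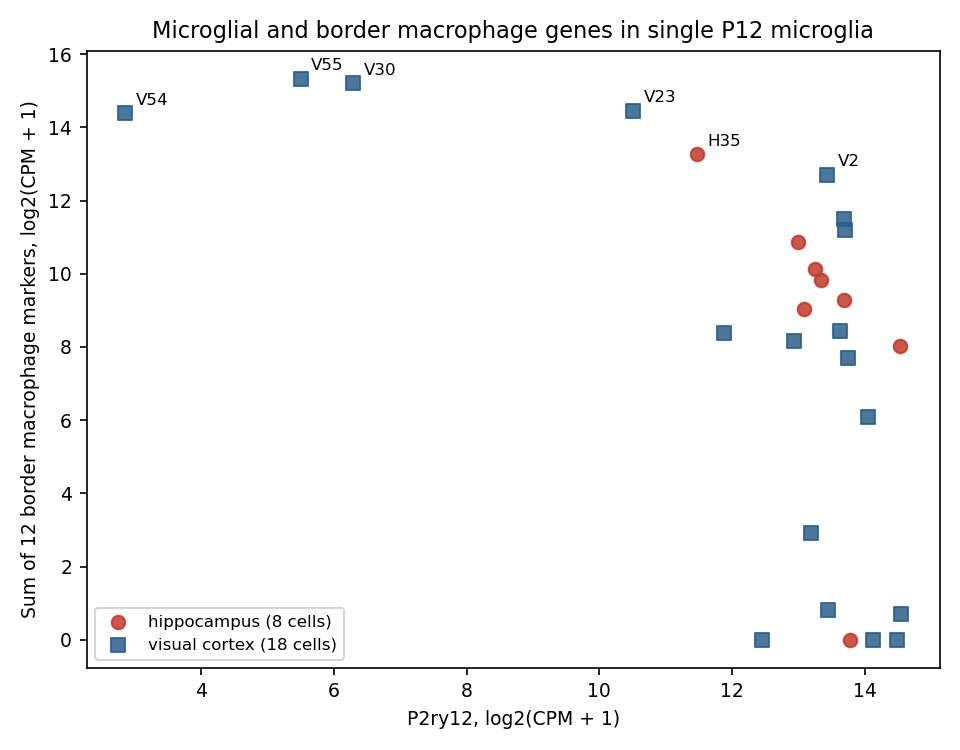
P2ry12 (x axis) against the sum of 12 border macrophage markers (y axis) in each of 26 P12 microglia, both as log2(CPM + 1); circles are hippocampus, squares visual cortex, and the 6 cells with at least 3 such markers are named. Visual cortex cells 54, 55 and 30 combine the lowest P2ry12 levels with macrophage marker sums of 21470, 41115 and 38021 CPM.

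The macrophage markers had the lowest median ratio of any list. All 12 were measured, and 10 were at least 2-fold lower in hippocampus and none higher, against 41.7% and 29.3% of all measured genes. The median log2 ratio was -6.93 (-8.15 with the 5 markers without a read in hippocampus set at the limit that 3 reads allow). F13a1, a coagulation factor subunit made by macrophages, had no read in any hippocampal cell and stood at 1409 CPM in visual cortex, at least 5430-fold higher against a floor of 3 reads over the hippocampal cells. Its reads came from visual cortex cells 55, 54, 30 and 23, at 11094, 8567, 4457 and 397 CPM, and 1 read from cell 35. Lyve1, a hyaluronan receptor, had 1 read in hippocampus and 21547 in visual cortex, a ratio of 10102 with a counting interval of 1813 to 399028. All of its cortical reads came from cells 55, 30 and 54. Mrc1, the mannose receptor, ran more widely. It had reads in 3 of 8 hippocampal and 10 of 18 cortical cells and stood at 425 against 2643 CPM (log2 ratio -2.63). Without the 6 cells the levels were 294 and 514 CPM and the log2 ratio -0.81. In those 20 cells 3 of the 12 markers were still measured, and their median log2 ratio was 1.81. Of the 3, 2 were at least 2-fold higher in hippocampus, against 33.5% of all genes measured in those cells. Stab1 was higher with cell support, as defined below. The 6 cells were picked by these same markers, 5 of them from visual cortex, so the fall of the cortical levels follows from that choice. The medians of -6.93 and 1.81 also cover different numbers of markers. Igf1, a growth factor, had reads in visual cortex cells 30, 54, 23 and 55 and in hippocampus cell 35 and in none of the 20 others. Apoe, a lipid carrier, stood at 277 against 2120 CPM (log2 ratio -2.93) and at 99.8 against 66.6 CPM (0.58) without the 6 cells.

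Markers of other brain cells were low in most cells. Visual cortex cells 28 and 34 each had at least 3 markers of another brain cell class at 50 CPM or more. None of 12 neuronal markers was measured, and their sum reached 0.838 CPM in hippocampus and 8.48 CPM in visual cortex. No red blood cell gene had a read. Astrocyte markers had 4 of 12 measured, with sums of 0.576 to 1598 CPM over the hippocampal and 1.39 to 3943 CPM over the cortical cells, against medians of 49919 and 50133 CPM in astrocytes. Their median log2 ratio was -3.57, but it was -4.97 without hippocampus cell 35, -2.53 without visual cortex cell 10, -1.0 without visual cortex cell 28, -1.06 without visual cortex cells 28 and 34 and -5.48 without the 6 cells with macrophage markers. Slc1a2, the glial glutamate transporter, was lower with cell support at 14 against 45 CPM, a log2 ratio of -1.61 with a range of -4.34 to -1.0 as single cells were left out. Oligodendrocyte lineage markers had 4 of 12 measured (median 0.92), with sums up to 2492 CPM in hippocampus and 557 CPM in visual cortex. Endothelial markers had 3 of 12 measured (sums up to 209 and 678 CPM, median -3.59, or -4.97 at the 3-read bound), mural and fibroblast markers 1 of 10 (up to 34.9 and 842 CPM, -5.60, or -7.51 at the bound). Blood monocyte and granulocyte markers had 2 of 10 (up to 411 and 119 CPM, 0.92, or 0.02 at the bound) and lymphocyte markers 1 of 10 (up to 577 and 1156 CPM, -0.97). Their part in the differences below was not tested.

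Across all genes, 6896 were measured, and the median log2 ratio was -0.35. At least 2-fold higher in hippocampus were 2021 genes (29.3%), and at least 2-fold lower were 2874 (41.7%). With so few cells, most of which lack a read for most genes, these shares are the background against which each count of a list is read. A stricter count asked for a ratio of 2-fold or more whichever cell was left out and a difference of at least 1 between the medians over cells of log2(CPM + 1), here called cell support. It was met by 187 higher genes (2.71%) and 144 lower genes (2.09%). Without the 6 cells with macrophage markers, 6348 genes were measured in 7 and 13 cells. Of these, 2126 (33.5%) were at least 2-fold higher and 2539 (40%) at least 2-fold lower, and 175 higher (2.76%) and 145 lower genes (2.28%) had cell support. Both sets of cells shared 115 of the higher genes and 80 of the lower ones. No measured gene separated the regions completely: for each of the 6896, the ranges over cells touched or overlapped.

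**Figure D2:**
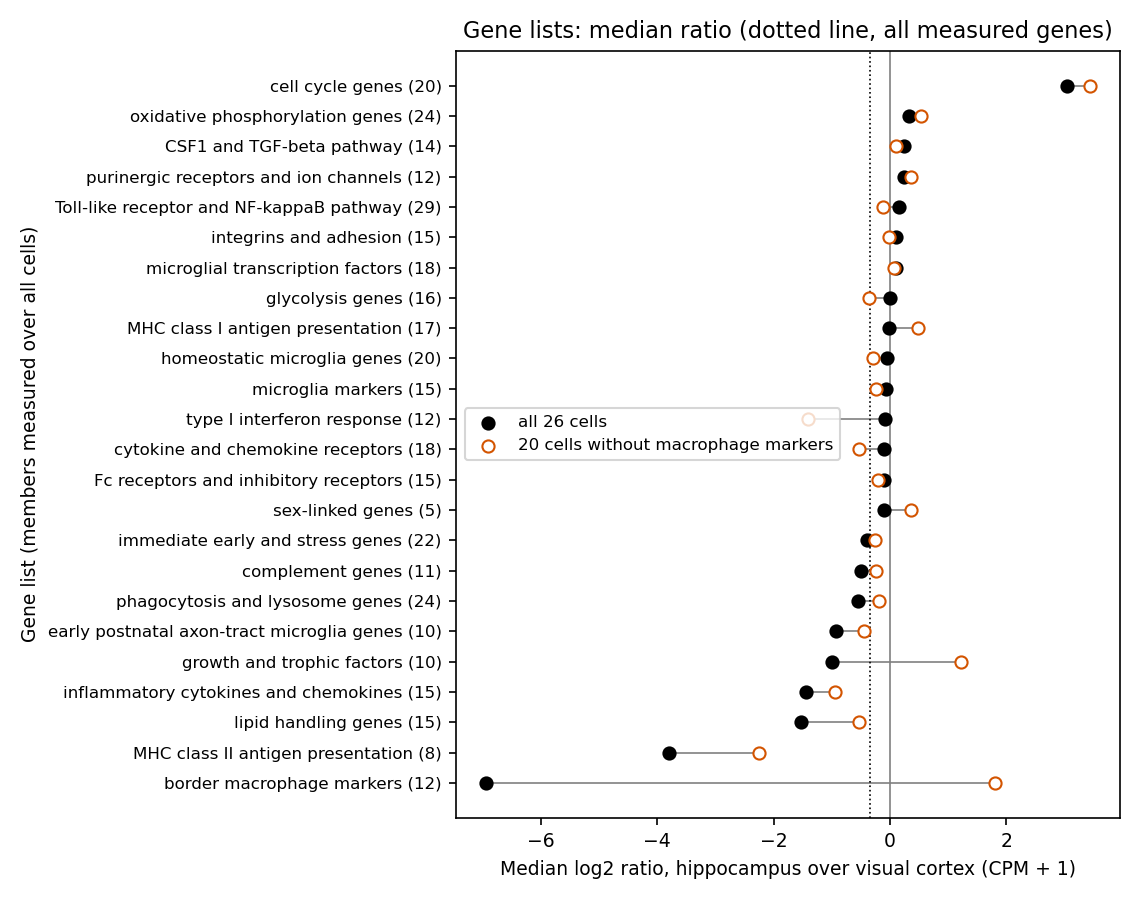
Median log2 ratio of each gene list with at least 5 measured members (x axis, hippocampus over visual cortex after adding 1 CPM), for all 26 cells (filled) and for the 20 cells without macrophage markers (open); the dotted line is the median of all measured genes. Most lists lie within 1 log2 unit of 0. The macrophage list, by which the left-out cells were picked, moves from -6.93 (12 markers) to 1.81 (3 markers).

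Genes were then named by size, 12 in each direction, among those with cell support, 50 CPM or more and a read in 50% or more of the cells of the higher region. Since the ratio chose them, their values are a description only. Tlr4, the receptor for bacterial lipopolysaccharide, led the higher genes. Hippocampus cells 35, 54 and 66 had 3360, 2543 and 1013 CPM, cell 20 had 26.3, and the other 4 had no read. In visual cortex a single read, in cell 35, was the only one among 18 cells. Thinned to 800000 reads per cell, 4 of 8 hippocampal cells and 0 of 18 cortical cells had a read. For the latter, up to 16.7% of cortical cells could have a read at this depth, which is not a share of cells expressing the gene. This is an approximate 95% bound, not an exact interval as above, and it treats the cells as independent draws. The thinned counts in astrocytes, which should lack the gene, were 0 of 19 and 1 of 15. The ratio of the regions was 22225, with a counting interval of 3988 to 877930, and the log2 ratio with 1 CPM added was 9.76. Tlr4 lost cell support without the 6 cells with macrophage markers, which include hippocampus cell 35. In the 3 thalamic microglia of the same age it had 0, 0.698 and 1276 CPM. The median depth was 1443419.5 and 1401039 reads in the microglia and 1190863 and 1089545 in the astrocytes.

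The other higher genes shared this form, with reads in 4 or 5 of 8 hippocampal cells and in 0 to 2 cortical cells. Of those that act in the nucleus, Nr1d2, a circadian repressor (REV-ERB beta), had reads in 5 of 8 cells up to 2262 CPM and in 1 of 18 at 43.5 CPM. Lemd3, a protein of the inner nuclear membrane, had reads in 4 of 8 cells at 9.09 to 719 CPM and in 2 of 18 up to 3.39 CPM. Nupl1, a nuclear pore protein, had reads in 4 of 8 cells, with 602 to 1658 CPM in 3 of them, and no read in 18, at least 3217-fold higher against a floor of 3 reads over the cortical cells. Among the rest, Atic makes purines, Zdhhc6 attaches palmitate to proteins and Rangap1 drives nuclear transport with the GTPase Ran. They stood at 192, 416 and 154 CPM, each with 1 read in visual cortex. Htatsf1, Tbc1d9, Prr14, Neurl1a and Ankrd10 completed the 12. Several of these levels rested on 1 cell: hippocampus cell 32 held 4120 CPM of Htatsf1 against 164 CPM or less in the others, and the log2 ratio of Ankrd10 was 6.51 with hippocampus cell 27 and 1.80 without it. Without the 6 cells with macrophage markers, 5 of the 12 kept cell support, namely Nr1d2, Nupl1, Htatsf1, Tbc1d9 and Ankrd10. In the thalamic microglia of the same age, Nr1d2, Neurl1a, Ankrd10 and Lemd3 reached 2229, 378, 79.2 and 0.565 CPM in cell 12. Atic, Prr14 and Zdhhc6 reached 226, 282 and 119 CPM in cell 4. Nupl1, Htatsf1, Tbc1d9 and Rangap1 had no read in any thalamic microglial cell.

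The lower genes were spread over more cortical cells. Slmap, a membrane protein of a phosphatase complex, had no read in any of 8 hippocampal cells and a read in 15 of 18 cortical cells, with a median of 29 and a highest value of 2267 CPM. It was at least 1494-fold lower in hippocampus against a floor of 3 reads. Rcsd1, an actin capping regulator of white blood cells, had 2 reads in 1 hippocampal cell and reads in 15 of 18 cortical cells, up to 1206 CPM. Slc7a7, a transporter of basic amino acids, had 5.49 CPM in 1 hippocampal cell and up to 930 CPM in 10 cortical cells. Gpbp1, a promoter-binding protein, had reads in 2 of 8 cells, with 12.9 CPM at most, and in 12 of 18 with a median of 58.3. Tiprl, a regulator of phosphatase PP2A, stood at 5.36 against 374 CPM, and Rab8a, a GTPase of membrane traffic, at 1.21 against 153 CPM. Ostc, a subunit of the glycosylation complex, stood at 1.04 against 224 CPM. Fam117b, Spag7, Mtss1, Eri3 and Smarcc2 were the others. Of the 12, 7 kept cell support without the 6 cells: Slmap, Fam117b, Rcsd1, Slc7a7, Tiprl, Eri3 and Gpbp1. In the 3 thalamic microglia of the same age Slmap had 1048 CPM in 1 cell and no read in the other two.

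**Figure D3:**
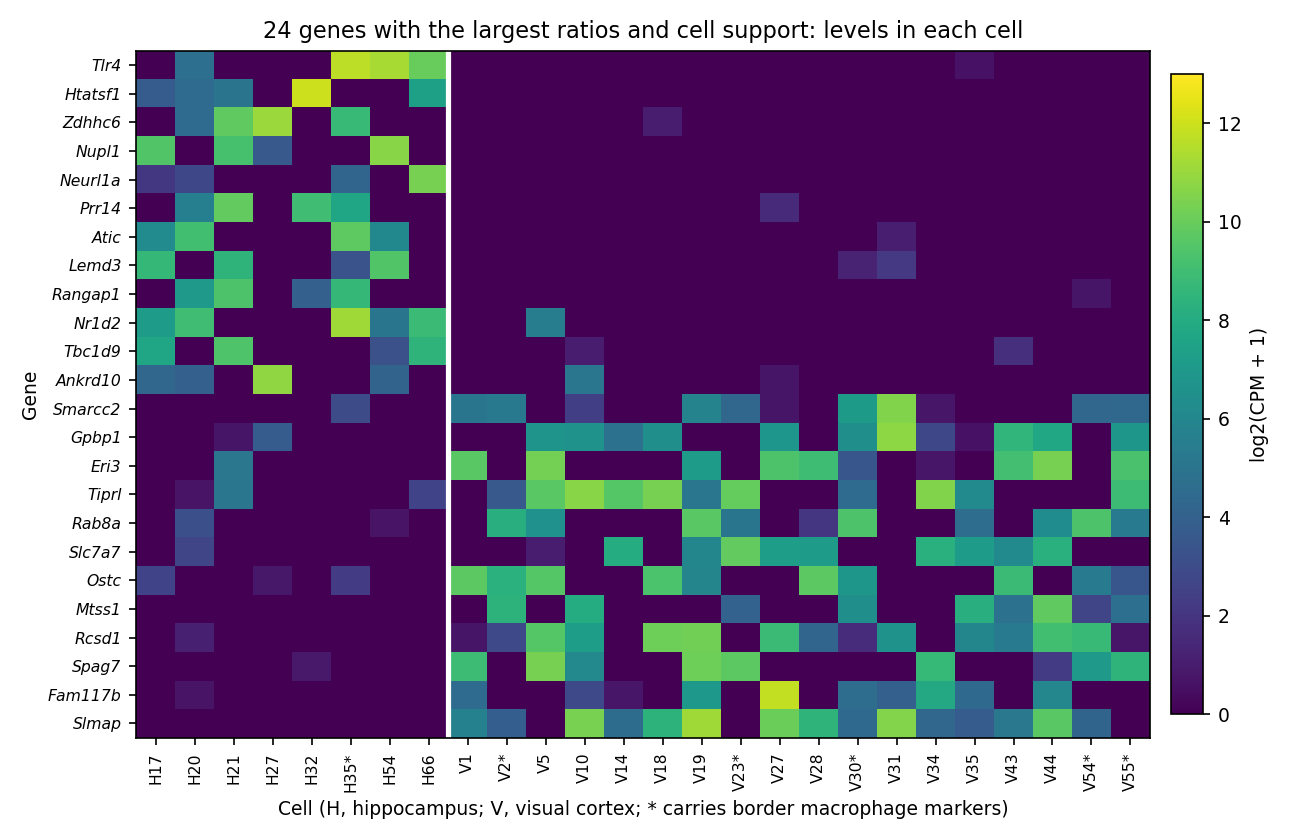
Level of the 24 genes named by size (rows) in each of 8 hippocampal and 18 cortical microglia (columns), as log2(CPM + 1). The 12 upper genes are read in 4 or 5 hippocampal cells and at most 2 cortical cells, and the 12 lower genes in 9 to 15 cortical cells and at most 3 hippocampal cells.

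Immediate early genes, transcription factors switched on within minutes of a stimulus, showed differences in both directions. Of 22 measured genes of the immediate early and stress list, 6 were at least 2-fold higher and 5 lower in hippocampus. The shares over all measured genes were 29.3% and 41.7%, so these counts do not exceed the background. Cell support was met by 2 genes in each direction, against 2.71% and 2.09% of all, and the median log2 ratio was -0.39. Junb, a subunit of the AP-1 factor (chr8:84976909-84978748 in GRCm38), was the most even of the higher genes. The hippocampal cells had 0, 573 and 1347 CPM as lowest, median and highest value, and the cortical cells 0, 4.75 and 556. Cells 17, 20, 27, 54, 21 and 66 of hippocampus had 548 CPM or more, and hippocampal cells 32 and 35 had 2.62 CPM and none. Visual cortex cells 35 and 14 had 556 and 369 CPM and the other 16 had 236 CPM or less. The levels were 593 (exact Poisson interval 579 to 608) against 95.8 CPM (92 to 99.7), a log2 ratio of 2.62 with a range of 2.39 to 3.27 as single cells were left out and 2.49 without the 6 cells. These intervals cover counting error only, since reads without molecular identifiers are not independent molecules. No cortical cell reached the hippocampal median.

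Egr2, a zinc finger factor of myeloid activation (chr10:67534469-67542188), had a like pattern. Its values over the hippocampal cells were 0, 1350 and 2660 CPM and over the cortical cells 0, 0 and 1396. Reads were found in 6 of 8 and 5 of 18 cells, the same after thinning, and in 4 of 19 and 1 of 15 thinned astrocytes. The 6 hippocampal cells had 254 CPM or more, while 13 cortical cells had no read. Its log2 ratio was 2.5 with all cells (2.28 to 3.14 as single cells were left out) and 2.66 without the 6. Klf4, a Krüppel-like factor, stood at 760 against 370 CPM, a ratio that was 1.04 with all cells, -0.15 without hippocampus cell 20 and 2.24, with cell support, without the 6 cells.

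Atf3 and Ier5 lay the other way. Atf3, a stress-induced repressor (chr1:191170296-191183333), had lowest, median and highest values of 0, 523 and 5009 CPM in hippocampus and of 0, 3696 and 9923 CPM in visual cortex. In visual cortex 13 cells had more than 2000 CPM and 1 more had 599, and in hippocampus 1 cell, cell 17, exceeded 2000 CPM. The log2 ratio was -1.69 (-2.52 to -1.46) and -1.71 without the 6 cells. Ier5, a regulator of heat shock factor 1 (chr1:155096367-155099636), had a median of 3.27 CPM in hippocampus and 211 in visual cortex, with 15 of 18 cortical cells above the hippocampal median. Its log2 ratio was -1.65, and -1.82 without the 6 cells. The best known members of the list were close: Fos stood at 2425 against 2945 CPM, Jun at 746 against 884 and Egr1 at 5490.5 against 8207, with log2 ratios of -0.28, -0.24 and -0.58.

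Other groups give these 4 genes a context without a test. In the 3 thalamic microglia Junb had 322 to 727 CPM and Egr2 1.13 to 1015 CPM, and in 10 adult visual cortex microglia (after merging 2 near-identical libraries) the pooled levels were 104 and 780 CPM. Atf3 stood at 851 CPM in thalamus and 4191 in the adult cells, and Ier5 at 64.6 and 35.4. Astrocytes of the same regions at the same age showed no like pattern for Egr2, at 34.4 against 34 CPM. For Junb they stood at 7.86 in hippocampus and 21.4 in visual cortex, and for Atf3 at 81.8 and 33.5, each opposite in direction to the microglia.

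**Figure D4:**
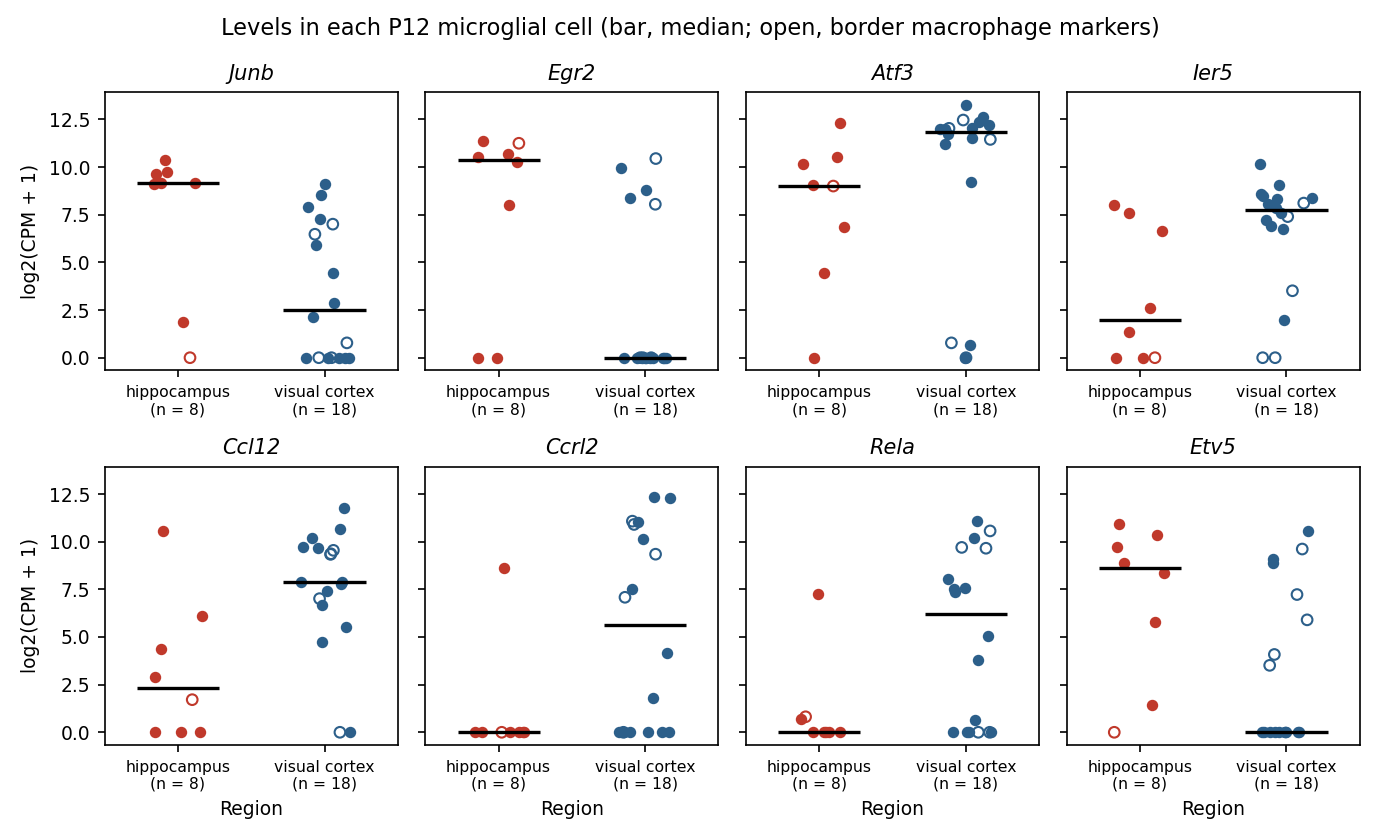
Level of 8 genes with cell support in each hippocampal (red, n = 8) and cortical (blue, n = 18) microglial cell, as log2(CPM + 1); bars are medians and open symbols the 6 cells with border macrophage markers. Junb, Egr2 and Etv5 have the higher median in hippocampus and Atf3, Ier5, Ccl12, Ccrl2 and Rela in visual cortex, and the ranges overlap in every panel.

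Signalling genes upstream of inflammation were mixed. The Toll-like receptor and NF-kappaB list had 29 measured members, 5 at least 2-fold higher and 5 lower, against 29.3% and 41.7% of all measured genes. Its median log2 ratio was 0.15. Cell support was met by Tlr4, which lost it without the 6 cells, and by 3 lower genes, against 2.71% and 2.09% of all measured genes. Rela, the p65 subunit of NF-kappaB, had a lowest, median and highest level of 0, 0 and 152 CPM in hippocampus and 0, 98.3 and 2204 CPM in visual cortex. Reads were found in 3 of 8 and 12 of 18 cells, and 10 cortical cells exceeded 30 CPM while 1 hippocampal cell did. The log2 ratio was -4.63, and -4.01 without the 6 cells, with support in both. Tlr7, an endosomal receptor for RNA, stood at 38 against 236 CPM (log2 ratio -2.61), and Myd88, the adaptor of most Toll-like receptors, at 3.55 against 136 CPM (-4.92). Both lost cell support without the 6 cells, where the log2 ratios were -1.22 and -2.49.

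Secreted cytokines and chemokines had a lower median in hippocampus than all measured genes. Of 15 measured, 8 were at least 2-fold lower and 1 higher in hippocampus, against 41.7% and 29.3% of all measured genes. The median log2 ratio was -1.44, or -0.95 without the 6 cells. Ccl12, a monocyte attractant, was the member with cell support. It had 0, 4.33 and 1509 CPM in hippocampus and 0, 236 and 3500 CPM in visual cortex, and 16 of 18 cortical cells lay above the hippocampal median. The log2 ratio was -1.64 and moved to -5.16 without hippocampus cell 27, which held nearly all hippocampal reads. Thinned, reads were found in 5 of 8 and 16 of 18 cells, and in 1 of 19 and 2 of 15 astrocytes. Ccl2 stood at 859 against 2617 CPM with nearly equal medians of 581 and 620, since visual cortex cells 30 and 54, both with macrophage markers, had 14175 and 13881 CPM. Ccl7 had reads in 1 of 8 and 6 of 18 cells and was highest, at 15072 CPM, in visual cortex cell 30; its log2 ratio was -3.27 with all cells and 2.18 without the 6. The 1 higher gene was Tnf, at 252 against 24.3 CPM, and hippocampus cell 32 alone had 2257 CPM: without it the log2 ratio of 3.32 was 0.35.

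Their receptors had 18 measured members, 2 higher and 7 lower by 2-fold or more, against 29.3% and 41.7% of all measured genes, with a median of -0.10. This median ran from -1.10 (without hippocampus cell 17) to 0.06 as single cells were left out. It was -0.54 without the 6 cells and -1.37 without hippocampus cells 21 and 35, a choice made after the data were seen. Ccrl2, a non-signalling chemerin and chemokine receptor, had cell support. In hippocampus 1 cell of 8, cell 20, had 386 CPM and the others none, and in visual cortex 11 of 18 cells had reads, 6 of them above 1000 CPM. The log2 ratio was -4.07, -9.87 without hippocampus cell 20 and -3.82 without the 6 cells. Adult cortical microglia stood at 1660 CPM and thalamic microglia at 63.4 CPM. Il6ra, the interleukin 6 receptor, had a log2 ratio of -1.27 with all cells and -3.34, with support, without the 6.

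Genes of class II antigen presentation were read in few cells. Of 13 genes of the class II list 8 were measured, 2 of them at least 2-fold higher and 6 lower in hippocampus. Over all measured genes 29.3% were higher and 41.7% lower. The median log2 ratio was -3.79. It was -2.01 without visual cortex cell 28 and -2.24 without the 6 cells, and it turned to 1.08 at a minimum of 50 CPM. Cd74, the invariant chain, had reads in 2 of 8 and 8 of 18 cells, stood at 12.7 against 113 CPM and reached 951 CPM in visual cortex cell 28. Adult cortical microglia stood at 1784 CPM. The costimulatory ligand Cd86 had values of 0, 316 and 1786 CPM in hippocampus and 0, 649 and 4031 CPM in visual cortex, a log2 ratio of -1.34 with cell support and -1.31 without support when the 6 cells were left out. Class I genes were close, with 2 of 17 higher, 5 lower and a median of -0.01. Of 12 measured interferon response genes 3 were higher and 4 lower, with a median of -0.09. Without hippocampus cell 35 the median was -4.74, and without the 6 cells 4 genes were measured, with a median of -1.41.

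Among purinergic receptors and channels 4 of 12 measured were higher and 4 lower, against 29.3% and 41.7% of all measured genes, with a median log2 ratio of 0.23. Entpd1 (CD39), the enzyme that removes extracellular ATP, was read in all 8 hippocampal cells, at 435, 939 and 6624 CPM as lowest, median and highest value, and each lay above the cortical median of 141 CPM. The cortical cells ran from 0 to 3946 CPM, so the groups overlapped. The log2 ratio was 1.29 (0.81 to 1.73 as single cells were left out) and 1.16 without the 6 cells, which misses the call for cell support. P2rx7, an ATP-gated channel, stood at 7.09 against 243 CPM (log2 ratio -4.91), and visual cortex cells 54 and 55 held 2415 and 954 CPM. Without the 6 cells it stood at 8.01 against 38.5 CPM. Adora3, an adenosine receptor, had reads in 4 of 8 and 4 of 18 cells and stood at 163 against 34.5 CPM, with cell support in all cells and not without the 6.

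Genes of uptake and digestion were mostly within 2-fold. Of 24 phagocytosis and lysosome genes, all measured, 7 were at least 2-fold lower, against 41.7% of all measured genes, and 1 was higher, against 29.3%. Cell support was met by 3 of the lower genes, against 2.09% of all, and by none of the higher. The median log2 ratio was -0.55, or -0.19 without the 6 cells. Ctsz, a lysosomal protease, had lowest, median and highest values of 0, 209 and 1645 CPM in hippocampus and 0, 937 and 6115 CPM in visual cortex, and 14 of 18 cortical cells lay above the hippocampal median. Its log2 ratio was -1.78, and -1.30 without the 6 cells. Hexa, an enzyme that degrades gangliosides, stood at 282 against 862 CPM (log2 ratio -1.61). Lamp1, a protein of the lysosomal membrane, stood at 94.1 against 261 CPM (-1.46). Ctsz, Hexa and Lamp1 had cell support with all 26 cells and lost it without the 6, where Psap, the precursor of the saposins, gained it at 93.9 against 323 CPM. Of 15 measured lipid genes 8 were lower and 2 higher, with a median of -1.54, or -0.53 without the 6 cells. Leaving out visual cortex cell 23 or 14 alone gave medians of -0.72 and -0.74. Abca1, a cholesterol exporter, had cell support at 238 against 878 CPM (log2 ratio -1.88, and -1.97 without support when the 6 cells were left out). The complement list (11 measured, 1 higher, 3 lower, median -0.50) included C1qb, a subunit of the initiator C1q: the hippocampal cells lay between 2207 and 4307 CPM and the cortical cells between 560 and 7227 CPM, with a log2 ratio of -0.37.

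Transcription factors of microglia were close, with 3 of 18 measured higher, 2 lower and a median of 0.09. Over all measured genes 29.3% were higher and 41.7% lower. Etv5, an ETS factor, had cell support. Its values were 0, 398 and 1914 CPM in hippocampus, with reads in 7 of 8 cells, and 0, 0 and 1524 CPM in visual cortex, with reads in 8 of 18. The log2 ratio was 1.56 (1.10 to 2.44) and 1.74 without the 6 cells. Elf1, another ETS factor, stood at 487 against 173 CPM and gained cell support without the 6 cells (log2 ratio 2.39). Oxidative phosphorylation had 24 measured members, 4 higher and 5 lower, with a median of 0.33, and Atp5a1, a subunit of the ATP synthase, was higher with support at 571 against 183 CPM, as was Ndufv1, a subunit of complex I, at 241 against 61.6 CPM. Neither had support without the 6 cells, where 3 other members did. Of 16 measured glycolysis genes 4 were higher and 4 lower. The remaining lists had medians of 0.24 for CSF1 and TGF-beta signalling (14 measured), 0.10 for integrins (15, with the tetraspanin Cd9 lower with support at 163 against 461 CPM), -0.10 for Fc and inhibitory receptors (15), -0.93 for genes of early postnatal axon tracts (10) and -1.0 for growth factors (10). Cd9 lost cell support without the 6 cells. The axon tract median was -2.92 without hippocampus cell 35, -1.91 without hippocampus cell 17 and -1.94 at a minimum of 50 CPM. The growth factor median was -2.24 without hippocampus cell 66, -1.97 without hippocampus cell 20 and -2.17 at that minimum, and it turned to 1.21 without the 6 cells.

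Genes of cell division were the list with the largest positive median, and 2 hippocampal cells carried most of the hippocampal reads. Of 20 measured members 15 were at least 2-fold higher and 4 lower in hippocampus, against 29.3% and 41.7% of all measured genes. The median log2 ratio was 3.03, against -0.35 over all measured genes. Hippocampus cell 21 had 13 of the list's genes at 50 CPM or more and a summed level of 21322 CPM, and hippocampus cell 35 had 7 and 4130 CPM. In the other 6 hippocampal cells the sum was 79.5 to 2061 CPM and in the cortical cells 0 to 3084 CPM, with at most 5 of these genes at 50 CPM. Without cell 21 the median was -0.52, and without both cells, an alternative chosen after the data were seen, it was -3.56. Without the 6 cells with macrophage markers, which leaves cell 21 in, 17 members were measured, with a median of 3.43. Of these, 14 were at least 2-fold higher and 2 lower, against 33.5% and 40% of all genes measured in those cells.

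Most of the higher genes are known for roles in mitosis, and others for DNA replication or entry into it, such as Tyms, which makes thymidylate (28.4 against 2.64 CPM), and Ccne2, a cyclin of S phase entry (18.3 CPM, all from hippocampus cell 54, against no read). Mki67, a protein that coats mitotic chromosomes, had 3153 CPM in hippocampus cell 21 and 1212 CPM in cell 35, and 17.2 CPM or less in every cortical cell. Ccnb1 and Ccnb2, the cyclins of mitotic entry, had 2620 and 945 CPM in cell 21 and 65.2 and 1336 CPM in cell 35, and 4 and 0 reads in all of visual cortex. Aurka, a spindle kinase, was read in cell 21 alone, at 1018 CPM. Top2a, the enzyme that untangles chromosomes, had 5952 CPM in cell 21, and visual cortex cell 18 had 2336 CPM. Cdk1, the kinase that cyclin B activates, had 1315 CPM in cell 21 and 608 CPM in visual cortex cell 31. The 4 lower genes, Pcna, Mcm2, Mcm5 and Rrm2, are also known for DNA replication. Pcna stood at 62.4 against 163 CPM, and Mcm2, Mcm5 and Rrm2 were each carried mainly by 1 cortical cell: Mcm2 and Rrm2 had 191 and 278 CPM in cell 30, and Mcm5 had 1182 CPM in cell 44. Stmn1, a microtubule regulator, was the member with cell support, at 513 against 75.3 CPM. It lost that support without the 6 cells with macrophage markers. Hippocampus cell 35 also carried macrophage markers, and cell 21 had 2 of the 12. Mki67 had no read in the 3 thalamic or the 10 adult microglia.

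**Figure D5:**
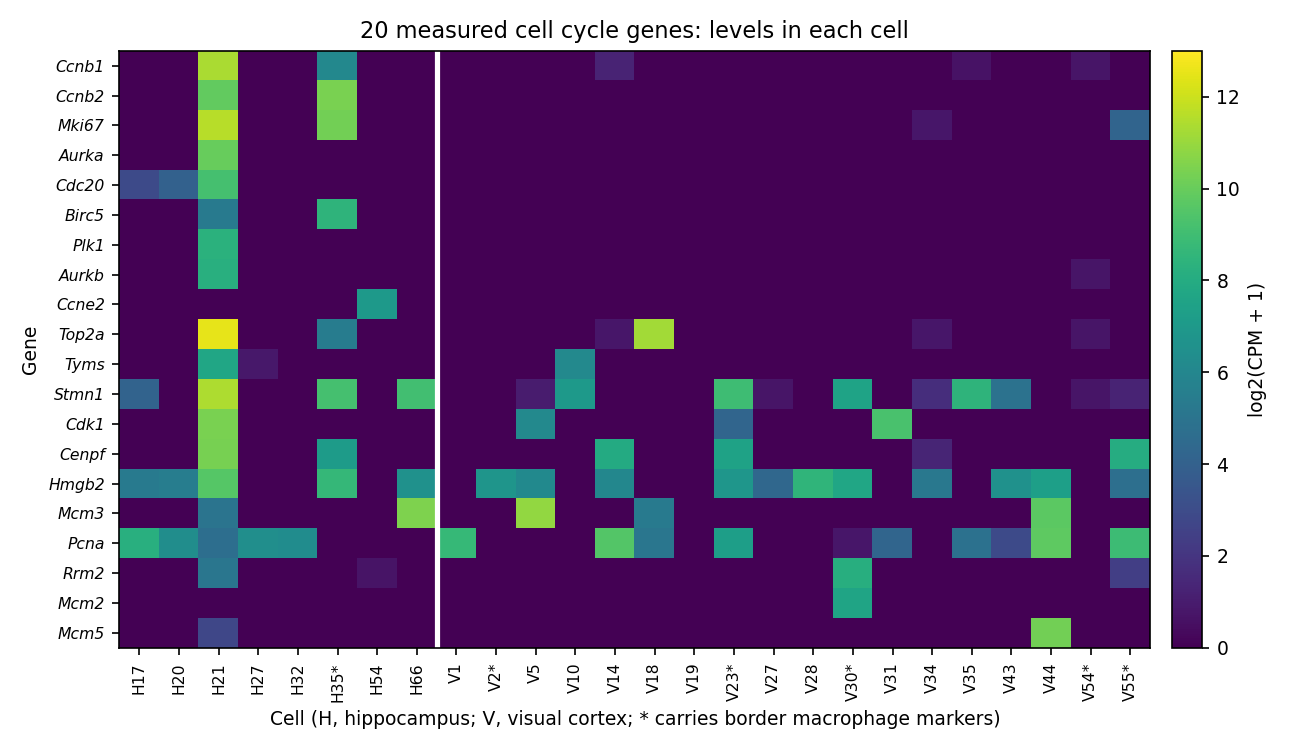
Level of the 20 measured cell cycle genes (rows, ordered by ratio) in each microglial cell (columns), as log2(CPM + 1). Hippocampus cell 21 holds 13 of the list's genes at 50 CPM or more and hippocampus cell 35 holds 7, against at most 5 in any other cell.

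Many mitotic promoters share a pair of short elements, the CCAAT box bound by NF-Y and the cell cycle genes homology region (CHR, letters TTTGAA). The 250 bases before the annotated start are shown for 3 genes read together in hippocampus cell 21, from RefSeq (GRCm38.p6), 5′ to 3′, with both elements in capitals on either strand (a CCAAT box on the opposite strand reads ATTGG, and a CHR reads TTCAAA).
Cdk1, chr10:69352913-69353162, minus strand: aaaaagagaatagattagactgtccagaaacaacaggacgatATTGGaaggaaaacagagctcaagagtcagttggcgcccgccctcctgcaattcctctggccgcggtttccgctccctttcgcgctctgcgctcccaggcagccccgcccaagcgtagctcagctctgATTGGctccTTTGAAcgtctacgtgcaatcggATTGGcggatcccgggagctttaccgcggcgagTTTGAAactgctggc
Top2a, chr11:99024190-99024439, minus strand: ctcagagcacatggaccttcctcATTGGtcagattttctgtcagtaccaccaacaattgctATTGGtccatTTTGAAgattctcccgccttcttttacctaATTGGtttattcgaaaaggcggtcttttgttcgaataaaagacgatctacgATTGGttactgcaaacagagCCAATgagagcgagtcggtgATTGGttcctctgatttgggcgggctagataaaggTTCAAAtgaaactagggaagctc
Mki67, chr7:135716380-135716629, minus strand: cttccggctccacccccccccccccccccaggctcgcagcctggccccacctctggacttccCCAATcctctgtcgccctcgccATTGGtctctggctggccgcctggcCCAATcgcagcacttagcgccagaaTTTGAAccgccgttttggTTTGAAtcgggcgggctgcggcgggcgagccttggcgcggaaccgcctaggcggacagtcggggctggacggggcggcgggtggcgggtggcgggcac
Cdk1 held 3 CCAAT letters and 2 CHR letters in this window, Top2a 6 and 2, and Mki67 3 and 2. Of the 23 list genes 19 had a promoter in the table, 17 of them (89.5%) with CCAAT and 8 (42.1%) with TTTGAA, against 33.8% and 16% of all 32851 promoter windows of this length. The list shares count a single window per gene and the shares of all windows count every window, so the units differ. All 8 list genes with TTTGAA also held CCAAT. A match is a description of letters, and binding was not measured.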

How the data were processed

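The counts deposited by the authors are unnormalised reads per gene and cell, made with STAR and HTSeq 0.6.0 on mm10, per the submitters' processing notes. Of 22074 genes, 21274 matched the reference by symbol and 22042 with older symbols. Reads were summed per region and divided by the sum (CPM), and the regions were compared as log2 ratios after adding 1 CPM, for genes at 10 CPM or more in either region, with Python 3.11.15, numpy 2.4.6, pandas 2.3.3 and scipy 1.17.1. edgeR 4.0.16 and DESeq2 1.42.0 (R 4.3.3) gave alternative scalings only. The ratio calculation was tested on simulated data. No test was run, since each region counts as 1 sample. Genes were named by size, 12 per direction, leaving out ribosomal and unnamed predicted genes, and otherwise from fixed lists. The members and lists were chosen with earlier results of these data known. Of 546 list entries, 9 were not analysed here. Cells were thinned to 800000 reads for shares of cells with a read, which left out none of the 26. Doublets were not called or removed. The closest pair of the 26 cells had a Pearson r of 0.496 over genes, and 2 adult libraries (r = 0.994) were merged. The lowest count that a gene without reads allows was set at 3 reads per region. Alternatives were other scalings, added constants, minimum levels, thinning, and cells left out. Some genes are not reported here.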

Additional observations from a re-analysis of the deposited data

Results flagged for a closer look

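In the 8 hippocampal cells, 117 measures were checked: total reads, genes detected, gene levels and list sums. The check looked for a highest or lowest cell whose gap to its neighbour exceeded Dixon's limit at 95%. For normally distributed values chance marks about 1 in 20 groups. That rate does not hold here, since many cells lack a read and many of the genes were chosen from these same data. Genes read in a single cell pass by construction. The limit was passed by 37 measures.

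Hippocampus cell 35, which carries macrophage markers, was lowest for the homeostatic gene sum (13310 CPM, next 51458), Csf1r (358 CPM), Selplg (0), Olfml3 (0), Jun (6.82) and Egr1 (0.758). It was highest for the lymphocyte marker sum (577 CPM), Igf1 (189), Slc1a2 (113) and Smarcc2 (6.82). Hippocampus cell 21, with the cell cycle genes, was highest for Top2a (5952 CPM), Cdk1 (1315), Aurka (1018), Ccl7 (889), Tyms (209), Eri3 (35.1), Rrm2 (33.8) and Mcm5 (5.74).

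Hippocampus cell 27 had the lowest macrophage marker sum (0 CPM, next 260) and lipid gene sum (97.2 CPM, next 1546), and the highest Ankrd10 (1810) and Gpbp1 (12.9). Cell 32 had the lowest glycolysis sum (91.7 CPM, next 1230) and the highest monocyte and granulocyte marker sum (411) and Spag7 (0.874). Cell 66 had the highest endothelial marker sum (209 CPM), Neurl1a (1279) and Lyve1 (0.576). Cell 20 was highest for Ccrl2 (386 CPM), Rab8a (7.94), Slc7a7 (5.49), Rcsd1 (1.22) and Fam117b (0.610). Cell 17 was highest for Rela (152 CPM), Cd74 (116) and Myd88 (34.3), and cell 54 for Ccne2 (129).

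Microglia markers also appeared in cells with other labels. Of 102 such cells in the P12 hippocampus and visual cortex sets, 4 had at least 3 of the 15 markers at 50 CPM or more. Hippocampus cell 12, labelled a myelinating oligodendrocyte, had a marker sum of 28014 CPM. Visual cortex cell 48, labelled OPC, had 24650 CPM, and visual cortex cell 24, labelled an astrocyte, had 13433 CPM. Hippocampus cell 47, without a cell type label, had 1631 CPM. The other 98 cells had at most 2 markers and a median sum of 3.92 CPM.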

How the results depend on the processing

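No paired analysis was possible because the result comes from no test and cells share no animal label. Cell support was met by 163 to 192 higher and 127 to 156 lower genes under other scalings, added constants, minimum levels and thinning. At a minimum of 50 CPM, 1327 genes were at least 2-fold higher and 1573 lower, and the MHC class II median was 1.08. It was -2.20 with no minimum. With 10 CPM added, the medians were -3.96 for border macrophage markers, -1.81 for MHC class II and 2.35 for cell cycle genes, and with 0.1 CPM added -10.11 and -5.08 for macrophage markers and MHC class II. Without the 6 macrophage-marker cells the medians were 1.81 for macrophage markers, -2.24 for MHC class II and 1.21 for growth factors, and single genes reached 0.13 for Lyve1, 0.58 for Apoe, 2.18 for Ccl7 and 2.65 for Rrm2. The macrophage list itself picked those 6 cells, and its 1.81 rests on 3 markers. Without visual cortex cells 28 and 34, which carry markers of another brain cell class, MHC class II stood at -2.09. Without hippocampus cells 21 and 35 (chosen after seeing the data) the macrophage median was -7.54, the cell cycle median -3.56, Mki67 -1.01, Top2a -6.62, Ccnb1 -0.22, Cdk1 -4.75 and Tyms -1.70. Leaving out single cells gave 140 to 202 higher and 122 to 186 lower genes, and medians of -7.54 to -5.44 for macrophage markers, -4.64 to -2.01 for MHC class II and -0.52 to 3.64 for cell cycle genes. Direction turned for Klf4 (-0.15 to 1.99), Top2a (-3.89 to 9.49), Cdk1 (-4.75 to 5.11), Tyms (-1.72 to 4.88), Mcm5 (-6.18 to 0.83) and Rrm2 (-3.95 to 2.17). The cause was not tested, beyond the cells left out.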

Other observations

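Ribosomal protein genes, not in any list above, had 84 measured members, 13 at least 2-fold higher and 3 lower in hippocampus. Over all measured genes 29.3% were higher and 41.7% lower. The median log2 ratio of the ribosomal genes was 0.37, against -0.35 over all measured genes. Border macrophage marker sums in the 3 thalamic microglia of the same age were 175, 400 and 1145 CPM, below the sums of the 6 cells set apart in hippocampus and visual cortex.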
